A study of Mus musculus with 6 samples.

Results

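Gap junctions let ions and small molecules pass directly between cells. Each cell contributes a half-channel built of connexin proteins, and the pairing of half-channels across the gap makes an electrical synapse in neurons or a coupled sheet in glia and vessels. Pannexins are topologically similar proteins that form large-pore channels to the outside of the cell and are known for releasing ATP. In the retina, coupling joins photoreceptors to each other, horizontal cells into a wide network, AII amacrine cells to one another and to ON cone bipolar cells, and some ganglion cells to amacrine cells. This account follows 9 genes chosen by symbol, the neuronal connexins Gjd2, Gjc1 and Gja10, the glial and vascular connexins Gja1, Gja4, Gjb2 and Gjb6, and the pannexins Panx1 and Panx2. All 9 were found among the 24346 symbols of the deposited tables.

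The samples were whole retinas of Cyfip2 CKO mice (3 libraries, CKO 1 to CKO 3) and of Cyfip2 WT mice (3 libraries, WT 1 to WT 3). CKO stands for a conditional knockout of Cyfip2, which encodes a subunit of the actin-regulating WAVE complex. The labels do not say which driver made the deletion, which cells it reached, how old the mice were or of which sex, and they do not tie each library to its own animal. The p-values below therefore rest on the spread over these libraries, part of which may be technical. The study asked what the loss of Cyfip2 does to retinal transcripts, and the values are FPKM, that is, fragments counted on a gene divided by its transcript length and by the size of the library.

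Cyfip2 averaged 9.91 ± 1.45 FPKM in the CKO libraries and 53.6 ± 15.7 FPKM in the WT libraries (SD over 3 each), with WT 1 at 35.5 FPKM, below the other WT libraries and above every CKO library. Retinal identity was plain from rod genes: Sag, which encodes rod arrestin, was at 2841 to 3336 FPKM in CKO and 3118 to 3594 FPKM in WT, and Gnat1, the rod transducin gene, at 2620 to 2681 FPKM in CKO and 2544 to 2861 FPKM in WT. Absolute depth is unknown for FPKM, and the relative depth read from the steps of low values lay between 1 and 1.30 times that of WT 1. Lens and cornea markers differed between libraries. Their summed level over 8 genes was 19.0 to 33.7 FPKM in CKO, against 32.6, 183 and 65.5 FPKM in WT 1, WT 2 and WT 3, with Krt5 at 0 in all.

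Gjd2 dominated the group. Gjd2 encodes connexin 36, the main connexin of electrical synapses between mammalian neurons, and its level of 58.1 to 68.6 FPKM over the 6 libraries made up 62.3% of the summed FPKM of the 9 genes. Panx2 came next at 12.7 to 15.2 FPKM, then Panx1 at 8.31 to 9.36 FPKM and Gjc1 at 6.81 to 8.26 FPKM. The ranges of these 4 genes did not overlap between neighbours in the order, although the gap from Panx1 to Gjc1 was narrow. Below them lay Gja10 (2.12 to 3.95 FPKM), Gja1 (1.81 to 4.33 FPKM) and Gja4 (1.25 to 2.80 FPKM), whose ranges overlapped each other. Gjb2 was listed at 0 in 5 libraries and at 0.0574 FPKM in WT 2, and Gjb6 was listed at 0 in all 6. FPKM is scaled to transcript length, so these levels can be set beside each other, and the mean of Gjd2 was 22.3 times that of Gja10.

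**Figure D1:**
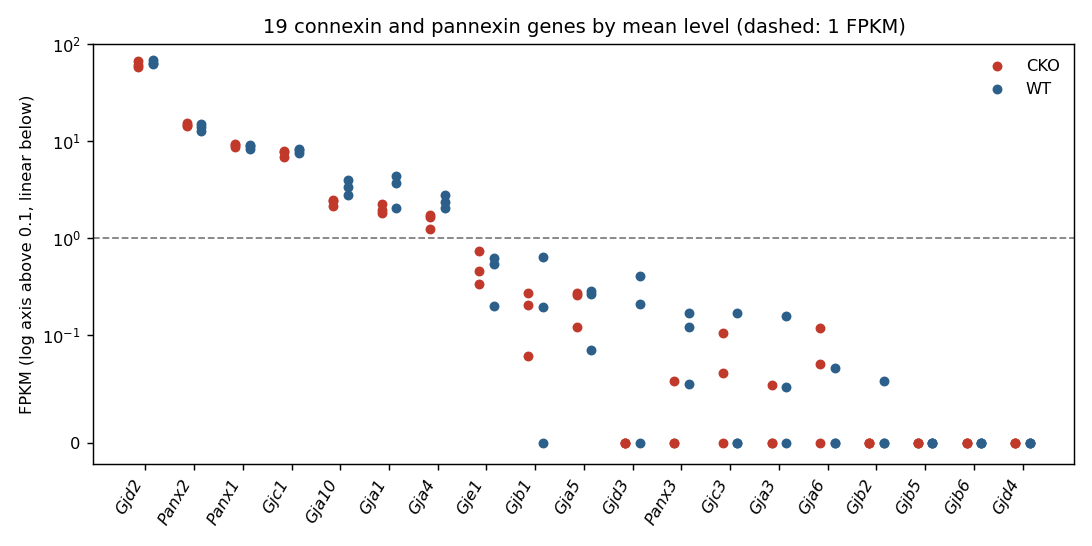
Levels in FPKM of the 9 genes and of 10 other connexin and pannexin genes, ordered by mean, with each library as a point (CKO left, WT right of each gene). The axis is logarithmic above 0.1 FPKM and linear below it. Gjd2 stands highest, and the 7 genes above the dashed line at 1 FPKM are all among the 9.

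Among the other genes of the family, 10 were examined: Gja3, Gja5, Gja6, Gjb1, Gjb5, Gjc3, Gjd3, Gjd4, Gje1 and Panx3. All 10 were below a mean of 1 FPKM, and their highest single value was 0.728 FPKM, for Gje1 in CKO 1. Gjb5 and Gjd4 were listed at 0 in every library, and Gja5 and Gje1 were above 0 in every library. Gja3, a connexin of lens fibre cells, was at 0.0535, 0 and 0 FPKM in CKO 1 to CKO 3, against 0, 0.0512 and 0.158 FPKM in WT 1 to WT 3. The groups overlapped, and the part of lens tissue in these low values was not tested.

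Coding structure also set the members apart. In GENCODE M21 on GRCm38, the coding sequence lay in a single exon in 6 of the 7 connexin genes and in 2 exons in Gjd2, against 5 exons in Panx1 and 3 in Panx2. Coding lengths ran from 226 codons for Gjb2 to 505 for Gja10 among the connexins, with 321 for Gjd2, 333 for Gja4, 382 for Gja1 and 396 for Gjc1. Panx1 had 426 codons and Panx2 677. Gjb2 and Gjb6, the pair that was at or near 0, are neighbours on chromosome 14, 18600 bp apart, with the lens connexin gene Gja3 40499 bp from Gjb2.

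Promoter windows of the most abundant member and of the 3 members with the largest differences between CKO and WT are shown because they differ sharply in base composition. Each runs 5′ to 3′ from 250 bases before to 50 bases after the gene start (RefSeq, GRCm38.p6), with the dinucleotide CG in capitals. They lie at chr2:114013570-114013869 (minus strand) for Gjd2, chr4:32602333-32602632 (minus strand) for Gja10, chr4:127313990-127314289 (minus strand) for Gja4 and chr10:56377050-56377349 (plus strand) for Gja1.
Gjd2: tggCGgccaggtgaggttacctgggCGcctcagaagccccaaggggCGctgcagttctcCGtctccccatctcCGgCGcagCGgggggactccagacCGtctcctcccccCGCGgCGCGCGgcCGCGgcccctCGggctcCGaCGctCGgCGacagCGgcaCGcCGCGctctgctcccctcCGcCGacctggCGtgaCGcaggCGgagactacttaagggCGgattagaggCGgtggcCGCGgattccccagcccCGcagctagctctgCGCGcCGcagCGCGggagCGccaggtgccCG
Gja10: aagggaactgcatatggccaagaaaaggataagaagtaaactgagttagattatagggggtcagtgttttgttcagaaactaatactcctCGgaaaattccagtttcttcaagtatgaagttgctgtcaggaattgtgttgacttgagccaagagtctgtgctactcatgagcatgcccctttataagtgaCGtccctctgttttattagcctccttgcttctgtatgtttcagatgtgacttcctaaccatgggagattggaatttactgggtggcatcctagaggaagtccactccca
Gja4: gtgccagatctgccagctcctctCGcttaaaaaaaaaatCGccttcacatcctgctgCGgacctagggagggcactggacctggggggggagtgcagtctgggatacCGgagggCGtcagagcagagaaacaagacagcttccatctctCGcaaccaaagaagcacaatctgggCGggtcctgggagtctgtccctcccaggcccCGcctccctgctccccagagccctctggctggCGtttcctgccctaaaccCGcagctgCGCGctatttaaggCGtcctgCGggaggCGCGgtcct
Gja1: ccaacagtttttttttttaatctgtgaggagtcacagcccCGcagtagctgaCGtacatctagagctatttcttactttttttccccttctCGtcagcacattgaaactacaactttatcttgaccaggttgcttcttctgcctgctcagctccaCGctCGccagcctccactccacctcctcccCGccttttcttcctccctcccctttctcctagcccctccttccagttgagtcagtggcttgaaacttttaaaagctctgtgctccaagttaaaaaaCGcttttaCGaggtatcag
The Gjd2 window held 41 CG dinucleotides at 75% GC, the Gja10 window 2 at 42.7%, the Gja4 window 16 at 62% and the Gja1 window 8 at 47.7%. The Gja10 window lies wholly inside the gene as GENCODE M21 places it (chr4:32596960-32602760, minus strand). Its composition and letters therefore describe the RefSeq start only, and may not be those of the promoter. The median of the 32851 promoters in the table was 7 CG dinucleotides and 52.7% GC. Promoter entries matched 7 of the 9 genes, all but Gjc1 and Panx2. Among these 7, a GC box (GGGCGG, either strand, in 35.7% of all promoters) was found in those of Gjd2, Gja4 and Gjb2. The letters of a TATA box (TATAAA, either strand, 13.6% of all) were matched in the Gja10 window, inside the GENCODE gene. As printed, that match reads TTTATA, so TATAAA lies on the opposite strand there. The letters TAATCC, bound by the photoreceptor factor CRX, were found in the Gjd2 promoter (7.06% of all), next to its GC box and sharing bases with it. ATCNAT, bound by Onecut factors, was found on either strand in none of the 7 (21.4% of all).

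The comparison of CKO with WT retina was made on log2(FPKM + 1) with limma over the 13215 genes that had a mean of at least 1 FPKM, and fold changes on this scale understate those of low genes. Of the 9 members, 7 passed this filter, and Gjb2 and Gjb6 did not. No member passed an adjusted p of 0.05, which 0.0227% of all tested genes did (3 genes). Cyfip2 was the 1 of these that was lower in CKO (log2 fold change -2.29, limma adjusted p = 0.0239). In some of the other fits described at the end, Cyfip2 did not pass either. Failing this threshold therefore does not show that a member is unchanged. At an unadjusted p under 0.05, 3 of the 7 were lower in CKO (Gja10, Gja1 and Gja4) and 0 were higher, where over all tested genes 4.36% were lower and 3.52% higher. These unadjusted calls changed when a single library was left out. The count was 1 without CKO 1 (Gja4), 1 without WT 1 (Gja10), 1 without WT 2 (Gja4), 2 without CKO 2 or without CKO 3 (Gja10 and Gja4) and 3 without WT 3. CKO and WT did not overlap for 2 of the 7, Gja10 and Gja4, both lower in CKO, where 6.95% of all tested genes lay lower and 6.96% higher without overlap. Among tested genes at 1 to 5 FPKM, the level of these members, 5.89% lay lower without overlap. The median log2 fold change of the 7 was -0.08, beside -0.0016 for all tested genes. The members were chosen with results of these data known, so these counts describe the members and are no test of the group.

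**Figure D2:**
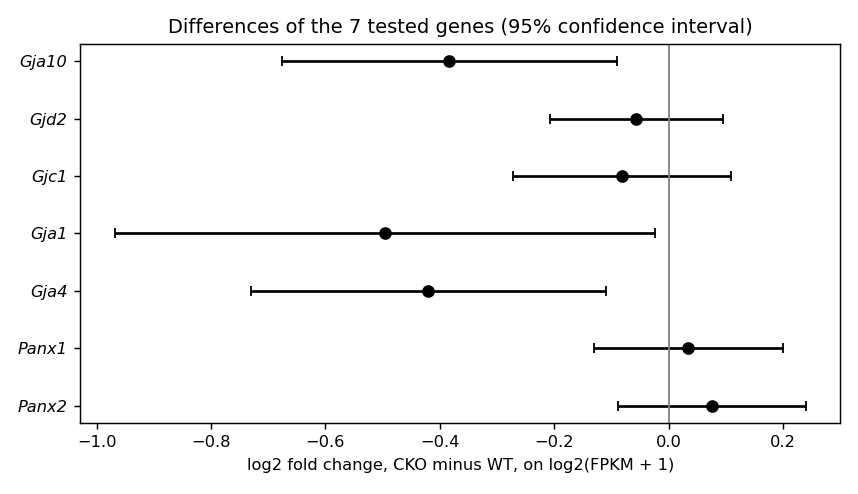
Log2 fold change of each tested member, CKO minus WT, on the log2(FPKM + 1) scale, with bars for the 95% confidence interval of the limma fit. The intervals of Gja10, Gja1 and Gja4 lie below 0, and those of Gjd2, Gjc1, Panx1 and Panx2 include 0.

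Gjd2 was close in CKO and WT. Its values were 58.1, 61.1 and 67.4 FPKM in CKO 1 to CKO 3, against 62.9, 62.5 and 68.6 FPKM in WT 1 to WT 3. The groups overlapped through CKO 3, which lay within the WT range, while CKO 1 and CKO 2 lay below every WT library. The log2 fold change was -0.06 (SE 0.07, limma adjusted p = 0.878), with a 95% confidence interval (given as the interval from here on) of -0.21 to 0.09, so that a change by a factor outside 0.866 to 1.07 lies beyond the interval. AII amacrine cells are a main site of connexin 36 in the inner retina. Of 6 AII markers tested, 3 lay above 0 and 3 below 0. In limma none passed the adjusted threshold, and 1 had an unadjusted p under 0.05. That gene was Calb2, which encodes the calcium buffer calretinin and is also found in other amacrine cells and ganglion cells. It was at 292, 279 and 288 FPKM in CKO, against 315, 341 and 324 FPKM in WT. Connexin 36 also couples cones and rods, and the summed level of 10 cone markers was 678 to 741 FPKM in CKO and 748 to 839 FPKM in WT. The part of either cell type in the Gjd2 values was not tested. In whole tissue, fewer cells of a type and less RNA per cell cannot be told apart.

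A gene on the other strand at the Gjd2 start was also measured. A530058N18Rik, a transcript without coding sequence annotated head to head with Gjd2, overlaps it by 57 bp at most on chromosome 2 and was singled out after its values were seen. It was at 11.6, 10.3 and 8.87 FPKM in CKO 1 to CKO 3, against 14.9, 16.2 and 12.7 FPKM in WT 1 to WT 3. Every CKO library lay below every WT library. The log2 fold change was -0.47 (SE 0.11, limma unadjusted p = 0.00335, adjusted p = 0.378). Its difference from Gjd2 was not tested. No source used here says whether counting used strand, so reads in the shared bases cannot be assigned to either gene.

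Gjc1 encodes connexin 45, which pairs with connexin 36 between AII amacrine and ON cone bipolar cells and also occurs in ganglion cells. It was at 7.92, 6.81 and 7.65 FPKM in CKO, against 7.46, 8.10 and 8.26 FPKM in WT. The groups overlapped, with CKO 2 lowest and WT 3 highest. The log2 fold change was -0.08 (SE 0.08, limma adjusted p = 0.857), with an interval of -0.27 to 0.11, and it ran from -0.12 without CKO 1 to -0.02 without CKO 2. Of 12 bipolar cell markers, 3 lay above 0 and 9 below 0. In limma none passed the adjusted threshold, and 1 had an unadjusted p under 0.05. Their summed level was 577 to 610 FPKM in CKO and 605 to 630 FPKM in WT.

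Gja10 had the lowest unadjusted p of the neuronal connexins. It encodes connexin 57, which in the mouse retina is known from horizontal cells, the inhibitory interneurons that feed back onto photoreceptors. Its values were 2.12, 2.44 and 2.41 FPKM in CKO 1 to CKO 3, against 2.74, 3.95 and 3.37 FPKM in WT 1 to WT 3. All CKO libraries lay below all WT libraries, and WT 1 was nearest to CKO. The CKO mean was 69.2% of the WT mean. The log2 fold change was -0.38 (SE 0.13, interval -0.68 to -0.09, limma unadjusted p = 0.0167, adjusted p = 0.538). Without WT 2 it was -0.29, the smallest of all fits with 1 library left out. WT 2 had both the highest Gja10 and the highest lens and cornea markers, and the part of the latter in the Gja10 value was not tested.

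Most horizontal cell markers were also at lower levels in CKO, as were most markers of rods, cones, bipolar cells, ganglion cells, astrocytes and endothelium. Of 6 rod markers, 0 lay above 0 and 6 below 0 (median -0.09). Müller glia markers went the other way, with 7 of 10 above 0. The part of any of these in the Gja10 difference was not tested. Of 10 horizontal cell markers, 1 had a log2 fold change above 0 and 9 below 0 (median -0.18), and 6 were lower in CKO without overlap between groups. In limma none passed the adjusted threshold and 5 had an unadjusted p under 0.05. Their summed level was 299, 312 and 315 FPKM in CKO, against 340, 341 and 342 FPKM in WT, and no marker was at 0. Of 12 ganglion cell markers, 1 lay above 0 and 11 below 0 (median -0.18), with 6 at an unadjusted p under 0.05 and 8 lower without overlap. Their summed level was 739 to 762 FPKM in CKO and 810 to 877 FPKM in WT. Of 10 cone markers, 9 lay below 0 (median -0.18), with 5 at an unadjusted p under 0.05 and 4 lower without overlap. No marker of either list passed the adjusted threshold in limma. Over all tested genes, 4.36% were lower in CKO at an unadjusted p under 0.05 in limma, and 6.95% were lower without overlap. Calb1, a calcium buffer, was at 26.2, 27.0 and 26.6 FPKM in CKO and 31.1, 37.1 and 33.0 FPKM in WT (log2 fold change -0.33, limma adjusted p = 0.304). Lhx1, a transcription factor of horizontal cells, was at 3.52, 3.93 and 3.99 FPKM in CKO and 4.45, 5.01 and 4.69 FPKM in WT (-0.25, limma adjusted p = 0.584). Megf11, Adra2a and Ndrg1 had log2 fold changes of -0.23, -0.27 and -0.14, while the transcription factor Onecut1 lay at 0.22. Set against the summed markers, Gja10 was at 7.07, 7.83 and 7.65 FPKM per 1000 marker FPKM in CKO and 8.07, 11.6 and 9.87 in WT, without overlap. Most of that sum came from Ndrg1, with a mean of 196 FPKM in CKO and 216 FPKM in WT, and from Prox1, with 52.4 FPKM in CKO and 52.7 FPKM in WT. Over the other 8 markers the groups overlapped, at 35.0 to 40.9 in CKO and 39.4 to 52.5 in WT. Set against Lhx1 alone, the groups overlapped, at 601 to 621 Gja10 FPKM per 1000 Lhx1 FPKM in CKO and 617 to 790 in WT. Against Calb1 they overlapped too, at 80.6 to 90.4 in CKO and 88.2 to 106 in WT. Set against Gjc1, Gja10 was at 267 to 359 FPKM per 1000 Gjc1 FPKM in CKO and 367 to 488 in WT, without overlap. The comparisons with single markers, with 8 markers and with Gjc1 were added after the values were seen.

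**Figure D3:**
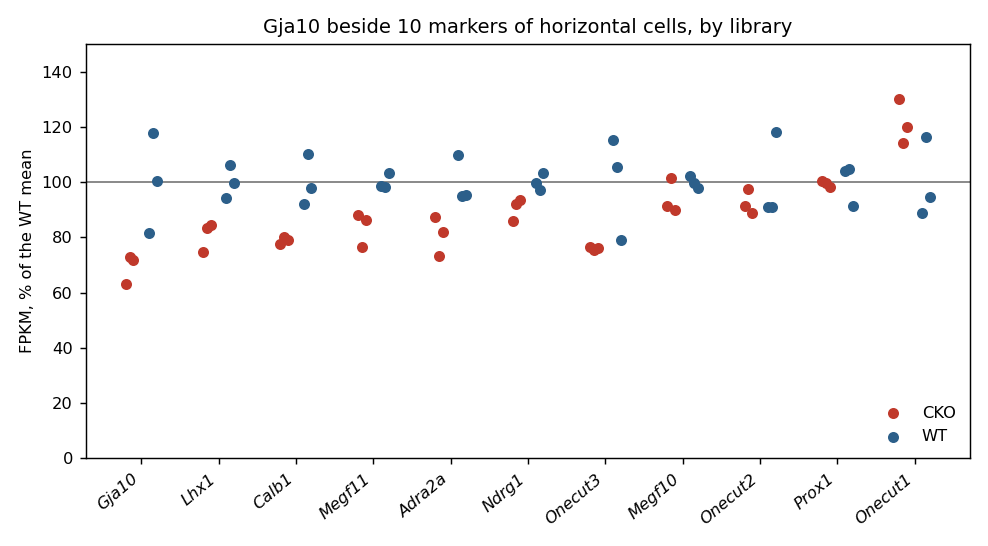
Gja10 and 10 horizontal cell markers, each library as a percentage of the WT mean of that gene in FPKM (CKO left, WT right). Gja10, Lhx1, Calb1, Megf11, Adra2a, Ndrg1 and Onecut3 have all CKO points below all WT points, and Onecut1 lies at higher values in CKO.

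Gja1 encodes connexin 43, the main connexin of astrocytes, also present in vessels and in Müller glia. It was at 1.95, 2.24 and 1.81 FPKM in CKO 1 to CKO 3, against 4.33, 3.69 and 2.01 FPKM in WT 1 to WT 3. The CKO libraries were close together, while WT 3 lay inside their range and the other WT libraries well above it. The SD over the CKO libraries was 0.219 FPKM, against 1.20 FPKM over the WT libraries, and over all 6 libraries its SD was 39.8% of its mean, the largest such share among the 7 tested members. The log2 fold change was -0.50 (SE 0.20, interval -0.97 to -0.02, limma unadjusted p = 0.0418, adjusted p = 0.608). Without WT 3 it was -0.74 (limma adjusted p = 0.28) and without WT 1 -0.33 (adjusted p = 0.709), so the size of the difference rested on which WT libraries were used.

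Summed glial markers overlapped between CKO and WT. Of 10 Müller glia markers, 7 lay above 0 and 3 below 0 (median log2 fold change 0.03), and their summed level was 1772 to 1937 FPKM in CKO and 1750 to 1860 FPKM in WT. The 5 astrocyte markers summed to 40.6, 29.8 and 31.5 FPKM in CKO 1 to CKO 3, against 31.0, 33.1 and 59.8 FPKM in WT 1 to WT 3, and none was at 0. All 4 tested astrocyte markers lay below 0 (median -0.16), with 0 at an unadjusted p under 0.05 and 1 lower without overlap. That gene was Aldh1l1, a folate enzyme gene, at 6.09, 5.58 and 5.91 FPKM in CKO, against 6.47, 6.79 and 6.90 FPKM in WT. The part of astrocytes in the Gja1 difference was not tested. Gfap, the glial filament gene, was at 20.2 FPKM in CKO 1 and down to 9.94 FPKM in the other CKO libraries, and at 9.96, 10.3 and 36.2 FPKM in WT 1 to WT 3. WT 3 thus combined the highest Gfap with the lowest Gja1 of the WT libraries. Leaving out CKO 1 and WT 3 together, an alternative added after the values were seen, gave a Gja1 log2 fold change of -0.73 (limma adjusted p = 0.349).

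Gja4 encodes connexin 37, a connexin of vascular endothelium. It was at 1.25, 1.73 and 1.66 FPKM in CKO, against 2.80, 2.05 and 2.37 FPKM in WT. The groups did not overlap, and the CKO mean was 64.2% of the WT mean. The log2 fold change was -0.42 (SE 0.13, interval -0.73 to -0.11, limma unadjusted p = 0.0143, adjusted p = 0.518), the smallest p of the 7 tested members. Of 9 endothelial markers, 1 lay above 0 and 8 below 0 (median -0.15). In limma none passed the adjusted threshold, 2 had an unadjusted p under 0.05, and 3 were lower without overlap (Cldn5, Pecam1 and Tie1). Among all tested genes, 4.36% were lower at that unadjusted p in limma and 6.95% lower without overlap. The tight junction gene Cldn5 was at 18.9, 21.2 and 18.9 FPKM in CKO and 21.9, 24.6 and 22.8 FPKM in WT. The summed endothelial level overlapped, at 119, 129 and 132 FPKM in CKO and 134, 128 and 132 FPKM in WT, and no marker was at 0. Much of that sum was Kdr, the 1 marker above 0, with a mean of 68.1 FPKM in CKO and 63.1 FPKM in WT. The other 8 markers summed to 50.2, 64.3 and 61.0 FPKM in CKO, against 63.7, 71.1 and 69.7 FPKM in WT. Gja4 per 1000 endothelial FPKM was 10.5 to 13.4 in CKO and 16.0 to 20.9 in WT. Without Kdr in the sum it was 24.9 to 27.2 in CKO and 28.8 to 44.0 in WT. Both ratios were added after the values were seen. Neither ratio overlapped between groups, and the part of endothelial cells in the Gja4 difference was not tested. Summed mural cell markers were 37.2 to 46.5 FPKM in CKO and 36.8 to 43.4 FPKM in WT.

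Gjb2 (connexin 26) and Gjb6 (connexin 30), best known from the supporting cells of the cochlea, gave nothing to compare. Gjb2 was listed at 0 in all CKO libraries and at 0, 0.0574 and 0 FPKM in WT 1 to WT 3. Gjb6 was listed at 0 in all 6. Connexin 30 is also an astrocyte connexin in brain. Here the astrocyte marker Gfap was at 9.94 to 36.2 FPKM over the 6 libraries. The markers Pdgfra, S100b and Aldh1l1 lay between 5.58 and 8.86 FPKM, and Pax2 at 0.460 to 1.07 FPKM. The amount of astrocyte RNA in these libraries was not tested.

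For both pannexins the CKO and WT means differed by less than the range over the WT libraries. Panx1, the ATP release channel, was at 9.18, 9.36 and 8.62 FPKM in CKO, against 9.16, 8.31 and 8.97 FPKM in WT. Its log2 fold change was 0.03 (SE 0.07, interval -0.13 to 0.20, limma adjusted p = 0.941), and it turned to -0.0030 without WT 2. Panx2, a pannexin of neurons found largely on inner membranes, was at 14.5, 14.1 and 15.2 FPKM in CKO, against 14.8, 13.9 and 12.7 FPKM in WT. Its log2 fold change was 0.08 (SE 0.07, interval -0.09 to 0.24, limma adjusted p = 0.837), and it ran from 0.02 without WT 3 to 0.12 without WT 1. The groups overlapped for both genes. Panx2 shares 2372 bp on chromosome 15 with 1810021B22Rik on the other strand, at 1.32 to 1.79 FPKM in CKO and 1.72 to 3.83 FPKM in WT. The log2 fold change of 1810021B22Rik was -0.47 (SE 0.21, limma unadjusted p = 0.0576, adjusted p = 0.650), and its groups overlapped. As at Gjd2, the use of strand in counting is unknown, so reads in the shared bases cannot be assigned to either gene.

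**Figure D4:**
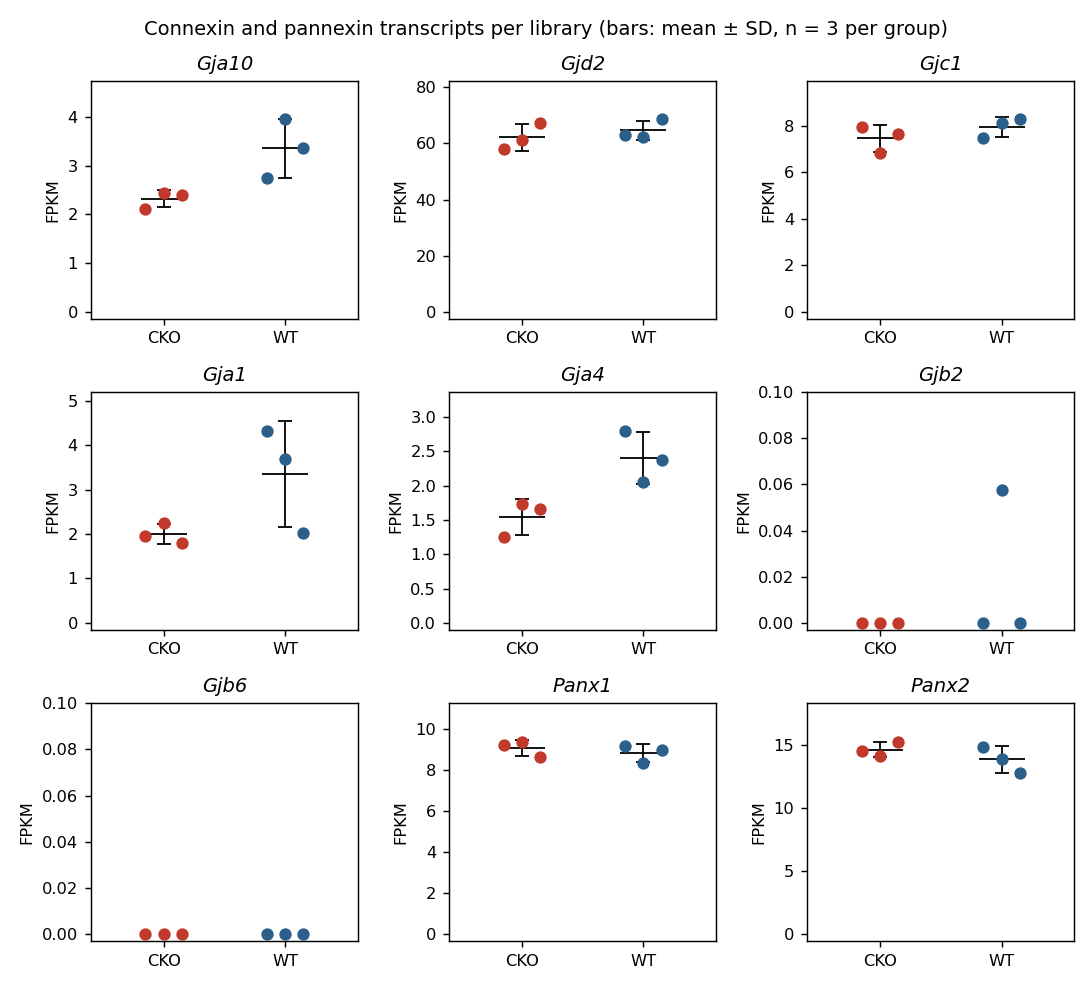
FPKM of each of the 9 genes in every library, CKO left and WT right, with the mean and SD of 3 libraries where no library is at 0. Gja10 and Gja4 have all CKO points below all WT points, Gja1 has WT 3 among the CKO points, and Gjd2, Gjc1, Panx1 and Panx2 overlap.

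The genes around the channels gave few differences at an unadjusted p under 0.05. Of 13 tested scaffold and trafficking genes, which include the ZO-1 gene Tjp1 that anchors connexins, 8 lay above 0 and 5 below 0 (median log2 fold change 0.02), with 0 at an unadjusted p under 0.05. Without overlap between groups, 2 of the 13 were higher in CKO and 0 lower. Tjp1 was at 32.5, 31.7 and 28.9 FPKM in CKO and 31.1, 30.3 and 30.2 FPKM in WT. Of 22 tested regulators of coupling, among them dopamine and adenosine receptors, nitric oxide and cyclic nucleotide enzymes and kinases, 15 lay above 0 and 7 below 0 (median 0.02), and 1 had an unadjusted p under 0.05. That gene was Drd4, the dopamine receptor of photoreceptors, through which light and the clock act on rod and cone coupling. Drd4 was at 88.3 to 104 FPKM in CKO, against 113 to 129 FPKM in WT (log2 fold change -0.35, SE 0.07, limma unadjusted p = 0.00139, adjusted p = 0.304). Its groups did not overlap. Of the 22 regulators, 4 were higher in CKO without overlap and 2 lower, with Drd4 among the latter. Over all tested genes, 6.96% were higher and 6.95% lower without overlap. Drd1, the receptor type of horizontal cells and other inner neurons, overlapped between groups (log2 fold change -0.02).

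Purine signalling genes, which act on the ATP that pannexins release, were split. Of 12 tested genes, 5 lay above 0 and 7 below 0 (median -0.03). In limma none passed the adjusted threshold, and 1 was higher and 1 lower at an unadjusted p under 0.05. P2ry14, a receptor for UDP-glucose, was at 1.67, 2.15 and 1.58 FPKM in CKO and 2.29, 3.62 and 3.09 FPKM in WT (log2 fold change -0.51, limma adjusted p = 0.504). P2ry1, a receptor for ADP, was at 2.75, 3.14 and 2.62 FPKM in CKO and 2.54, 1.95 and 1.97 FPKM in WT (0.29, limma adjusted p = 0.616). The groups did not overlap in either gene. Of the 12 tested genes, 1 was higher in CKO without overlap and 2 lower. The shares without overlap over all tested genes were 6.96% higher and 6.95% lower. At an unadjusted p under 0.05 in limma they were 3.52% higher and 4.36% lower.

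Over the 6 libraries, the tested gene most like Gja10 in log2(FPKM + 1) was Scrt1 (Pearson r 0.996), and that most like Gjd2 was Nek9 (0.990). For Gja1 it was Nipal1 (0.991), for Gjc1 Ggt7 (0.989) and for Gja4 6430706D22Rik (0.995). For Panx1 it was B230118H07Rik (0.992) and for Panx2 Ppm1k (0.986). The horizontal cell gene Onecut3 was among the 3 nearest to Gja1 (0.981), and the lens crystallin gene Crygs among the 3 nearest to Gja10 (0.990). With 6 libraries, the highest r of a tested gene had a median of 0.992 over 661 genes, so these values are of the size that any gene reaches.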

How the data were processed

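Messenger RNA of 3 CKO and 3 WT retina libraries was sequenced from TRIzol-extracted RNA with a stranded TruSeq kit, per the labels' protocols. Per the submitters' processing notes, Cufflinks 2.2.1, SAMtools 1.11, TopHat2 2.0.13 and Bowtie2 2.3.5.1 were used with mm10, in roles that the notes leave unsaid, and no source used here names the annotation or the use of strand. The deposited values are FPKM per gene symbol, a unit judged from the named tool and from the values, and they were used as deposited. In WT 3, 27 symbols turned into dates were restored by row.

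Genes averaging 1 FPKM or more over the 6 libraries were compared on log2(FPKM + 1) with limma 3.58.1 in R 4.3.3 (variance trend, two-sided, Benjamini-Hochberg adjustment over all 13215 genes). The fit was tested on simulated data. An exact permutation test of 3 against 3 libraries cannot go below p = 0.1, so none was used. The members, lists and tests were chosen with earlier results of these data known. Genes named outside the members had an unadjusted p under 0.05 and groups without overlap, or were nearest in correlation; others, such as Tjp1, Drd1, Gfap, Gja3, Sag, Gnat1, A530058N18Rik and the markers given with their values, were chosen after their values were seen. Gene positions are from GENCODE M21 (GRCm38) and promoters from RefSeq. Protein features were not analysed here, and some other genes of the family and of the marker lists are not reported here. FPKM keeps no fragment counts, so no interval for counting error was set.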

Additional observations from a re-analysis of the deposited data

How the results depend on the processing

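No member passed an adjusted p of 0.05 in limma under any of 17 other fits (pseudocounts, filters, scalings, replicate block, weights, eBayes settings, each library left out) or without CKO 1 and WT 3 together. Gja10 stayed between -0.52 and -0.29 (log2 fold change), Gja4 between -0.64 and -0.33 and Gja1 between -0.74 and -0.33 over those of the 17 fits that kept them; a minimum of 5 FPKM removed all 3. An unadjusted p under 0.05 was kept by Gja10 in 14, by Gja4 in 15 and by Gja1 in 10 of the 16 fits that tested them. With libraries left out, Panx1 ran from -0.0030 (without WT 2, a turned sign) to 0.066, and Gjd2 from -0.11 to 0.032 (without CKO 1 and WT 3, a turned sign). Over all genes, the count higher in CKO, 2 as reported, was 1 with the replicate block and without the variance trend, 3 without a filter, with quantile normalization, robust eBayes and sample weights, and 1 to 4 with libraries left out. The count lower, 1 as reported, was 0 without a filter, with robust eBayes and without the trend, and 0 to 5 with libraries left out; leaving out CKO 1 and WT 3 gave 4 higher and 5 lower. The cause was not tested. Deviations of same-numbered libraries correlated at 0.07, 0.01 and 0.10, and those of differently numbered libraries at -0.12 to 0.04. Of the 6 libraries, 4 (2 of 3 CKO and 2 of 3 WT) correlated best with the one of their own number. Since not every same-numbered pair passed 0.1, the main fit did not pair the libraries. Correlations this weak do not settle whether the numbers pair them. With the replicate block the log2 fold changes were the same and the limma adjusted p of Gja10 was 0.43. The SE with the block was 0.11 for Gja10, 0.16 for Gja1 and 0.15 for Gja4, against 0.13, 0.20 and 0.13 without it.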
